A study of Mus musculus with 8 samples.

Results

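The EGF receptor family and its ligands were followed through the epidermis of newborn mice as 9 named genes out of 21690 in the expression data. The receptors were Egfr, Erbb2 and Erbb3, and the ligands were Areg, Ereg, Hbegf, Epgn, Tgfa and Btc. The genes were chosen by name and not by their values. Back-skin epidermis was taken at postnatal day 5 and its RNA was sequenced in 8 libraries, 4 control and 4 experimental, which the labels call biological replicates. Control pups had the genotype Esrp1flox/flox; Esrp2-/-, with no transgene named. Experimental pups had the genotype K5rTA tetOCre Esrp1flox/flox; Esrp2-/-, in which doxycycline turns on Cre recombinase in cells that use the keratin 5 promoter, and Cre then removes part of Esrp1. Dams of both groups ate doxycycline chow from embryonic day 17 to postnatal day 5. Both groups therefore lacked Esrp2 and had doxycycline, and they differed in the Esrp1 deletion together with the transgenes. ESRP1 and ESRP2 are RNA-binding proteins that set splicing in epithelia.

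EGF receptors are membrane tyrosine kinases that pair up when a ligand binds and pass the signal to the RAS-MAP kinase and PI3 kinase routes. EGFR binds all 6 ligands, ERBB2 binds none and acts as a partner, and ERBB3 has a weak kinase and binds neuregulins. The ligands are made as membrane proteins and are cut free by ADAM proteases. In epidermis the pathway drives keratinocyte growth and wound closure and shapes the hair coat.

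None of the 9 genes lay at the floor of 1 TPM (a transcript level corrected for transcript length and scaled to a fixed total per library) in any library. The lowest entry was that of Hbegf in control library 1, at 3.91 TPM. None of the 9 passed the test between the groups (limma, adjusted p under 0.05, two-sided), where 2.46% of 10682 tested genes did (0.917% higher and 1.54% lower). For 0 of the 9 were the groups free of overlap, which held for 12.6% of the tested genes (2.7% higher and 9.94% lower). Epgn stood nearest to the threshold, at 8.12 ± 4.45 TPM in control epidermis, against 14.6 ± 5.11 TPM in experimental epidermis (SD, n = 4 each). It was the 1 member with an unadjusted p under 0.05, as were 16.9% of tested genes. Its part of the ligand transcripts was larger in each experimental library than in all controls, as was that of Hbegf. These shares were not tested. For ratios of single genes within a library, the groups were apart in 14.8% of all gene pairs, and no background was computed for shares of a sum. Over all genes 98 rose and 165 fell with the values as deposited. After each library was centred on its median gene, 283 rose and 102 fell. The median log2 change over all tested genes was -0.18 as deposited and 0.03 after centring, and over the 9 members it was -0.27 as deposited.

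The targeted transcript was checked first. Esrp1 stood at 131 to 162 TPM in control and at 49.8 to 75.6 TPM in experimental libraries, in keeping with the labels. Esrp2 was listed at 0 to 3.31 TPM in control epidermis, against 3.25 to 5.28 TPM in experimental epidermis, and whether these reads lie in the deleted part was not tested. All 11 basal keratinocyte markers looked up were tested and had log2 changes below 0, as did 74.5% of all tested genes. The 1 that fell was Krt15 (log2 change -2.82, limma adjusted p = 0.0361), and Krt5 and Krt14 did not pass. The summed level of the 11 basal markers ran from 930 to 8101 TPM in controls and from 1762 to 3025 TPM in experimental libraries. Of 11 suprabasal keratinocyte markers 0 rose and 1, Calml3, fell, with 7 log2 changes above 0 and 4 below. The suprabasal sum was 81319 to 93548 TPM in controls and 101430 to 138950 TPM in experimental libraries. The 12 cell cycle genes summed to 39.0 to 331 TPM in control epidermis, against 99.3 to 108 TPM in experimental epidermis. Of 10 sebaceous gland markers 2 fell, and their sum was 212 to 513 TPM in control and 85.0 to 156 TPM in experimental libraries. Of 8 stress genes, 4 rose, the keratin genes Krt6b and Krt16 and the envelope genes Sprr1b and Sprr2d. The others, Krt6a, Krt17, S100a8 and S100a9, did not pass. The part of these in the members' levels was not tested. Among other cell types, all 5 endothelial markers were at 0 in every library, and the 8 fibroblast markers summed to 34.6 to 224 TPM in control and 79.9 to 114 TPM in experimental libraries, mostly from Postn and Vim, with Lum and Pdgfra at 0 throughout and 0 of the 3 tested passing. TPM carries no sequencing depth, so depth was unknown. In such bulk tissue, fewer cells of a type and less RNA per cell cannot be told apart.

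Among the receptors, Erbb3 was the most abundant. Erbb3 (ENSMUSG00000018166.8; GRCm38, chromosome 10, 128567523 to 128589652, minus strand) read 36.8, 33.9, 34.7 and 46.4 TPM in control libraries 1 to 4 and 41.2, 24.6, 40.7 and 35.8 TPM in experimental libraries 1 to 4. The groups overlapped, with the highest value in control library 4 and the lowest in experimental library 2. Its log2 change was -0.11 (95% interval -0.56 to 0.34, limma adjusted p = 0.809), and the sign turned with centring (0.11).

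Erbb2, which encodes the partner receptor that binds no ligand, varied least among controls. Erbb2 (ENSMUSG00000062312.5; chromosome 11, 98412470 to 98437716, plus strand) read 30.3, 29.2, 30.1 and 31.4 TPM in controls, the highest of them 1.08 times the lowest. The experimental libraries read 24.7, 18.3, 27.9 and 30.5 TPM, with library 4 inside the control range and the other three under it. The log2 change of Erbb2 was -0.27 (95% interval -0.67 to 0.13, limma adjusted p = 0.471).

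Egfr, the receptor for all 6 ligands, had the lowest level of the receptors. Egfr (ENSMUSG00000020122.16; chromosome 11, 16752203 to 16918158, plus strand) read 10.7, 9.56, 9.06 and 15.3 TPM in control epidermis, against 11.03, 5.55, 9.99 and 9.28 TPM in experimental epidermis. Again control library 4 was highest and experimental library 2 lowest, and the other 6 values lay together. Its log2 change was -0.30 (95% interval -0.83 to 0.23, limma adjusted p = 0.547). Egfr made up 12.3% to 16.4% of the summed receptor TPM in control epidermis, against 11.5% to 14.3% in experimental epidermis.

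Betacellulin and TGF-alpha were the most abundant ligand transcripts. Btc (ENSMUSG00000082361.6; chromosome 5, 91357261 to 91402994, minus strand), which encodes betacellulin, read 63.1, 54.8, 66.4 and 109.8 TPM in control epidermis, against 34.3, 52.1, 74.1 and 58.5 TPM in experimental epidermis. The groups overlapped, although experimental libraries 1 and 2 lay under every control. Its log2 change was -0.42 (95% interval -1.03 to 0.19, limma adjusted p = 0.467).

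Tgfa (ENSMUSG00000029999.14; chromosome 6, 86195223 to 86275719, plus strand) encodes TGF-alpha, whose loss gives mice a wavy coat. It read 19.5, 30.6, 44.7 and 116 TPM in controls, a span of 5.95 times and the widest of the 9 genes. The experimental libraries read 34.1, 11.4, 34.8 and 31.4 TPM. No experimental library exceeded the median control, yet 3 of the 4 lay above control libraries 1 and 2. The log2 change of Tgfa was -0.69 (95% interval -1.84 to 0.45, limma adjusted p = 0.518), and without control libraries 3 and 4 it was 0.07. Without control libraries 1 and 2 it was -1.45 (limma adjusted p = 0.138). The 17 hair follicle and hair shaft markers summed to 51693 TPM in control library 4, 7085 to 20382 TPM in the other controls and 1673 to 12180 TPM in experimental libraries, and none of the 16 tested passed. All 16 had log2 changes below 0 (median -1.47), 9 had an unadjusted p under 0.05, and for 5 every experimental value lay under every control. Their part in the Tgfa level was not tested.

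Amphiregulin and epiregulin transcripts differed little between group means for their spread. Areg (ENSMUSG00000029378.5; chromosome 5, 91139599 to 91148432, plus strand), an autocrine growth factor of keratinocytes, read 12.7, 18.4, 21.3 and 39.9 TPM in control epidermis, against 30.1, 7.12, 12.6 and 14.2 TPM in experimental epidermis. Experimental library 1 alone of its group exceeded 3 of the controls. The log2 change of Areg was -0.55 (95% interval -1.48 to 0.38, limma adjusted p = 0.525). Ereg (ENSMUSG00000029377.5; chromosome 5, 91074622 to 91093646, plus strand), which encodes epiregulin, read 9.60, 11.2, 6.28 and 18.6 TPM in control epidermis, against 15.05, 7.70, 11.4 and 8.79 TPM in experimental epidermis. Both groups covered much the same range. The log2 change of Ereg was -0.03 (95% interval -0.71 to 0.65, limma adjusted p = 0.968), and it was 0.18 after centring.

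Epgn and Hbegf were the members with a log2 change above 0. Hbegf (ENSMUSG00000024486.6; chromosome 18, 36504927 to 36515805, minus strand), the heparin-binding ligand linked to keratinocyte migration in wounds, read 3.91, 4.74, 6.51 and 7.98 TPM in control epidermis, against 9.12, 5.63, 6.86 and 10.3 TPM in experimental epidermis. Experimental libraries 1 and 4 lay above every control, and libraries 2 and 3 lay among the controls. Its log2 change was 0.41 (95% interval -0.13 to 0.96, limma adjusted p = 0.421).

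Epgn (ENSMUSG00000035020.11; chromosome 5, 91027464 to 91035215, plus strand) encodes epigen, a low-affinity ligand of EGFR. It read 4.66, 6.27, 6.92 and 14.6 TPM in control epidermis, against 17.5, 7.86, 13.4 and 19.4 TPM in experimental epidermis. Control library 4 alone reached into the experimental range, and all 4 experimental values lay above the other 3 controls. The log2 change of Epgn was 0.81 (SE 0.35, 95% interval 0.04 to 1.58, limma adjusted p = 0.267). Over 18 alternative fits its log2 change ran from 0.41 to 1.21 and its limma adjusted p from 0.0328 to 0.653. The call was gained without control library 4 (log2 change 1.11, limma adjusted p = 0.0481) and without control libraries 3 and 4 (log2 change 1.21, limma adjusted p = 0.0328). In those fits 581 and 2544 of 10682 genes passed, against 263 with all libraries. Without control libraries 1 and 2 the log2 change of Epgn was 0.41 (limma adjusted p = 0.575). Control library 4 had the lowest basal marker sum, 930 TPM, and the lowest cell cycle sum, 39.0 TPM, and the part of either in its Epgn level was not tested.

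**Figure D1:**
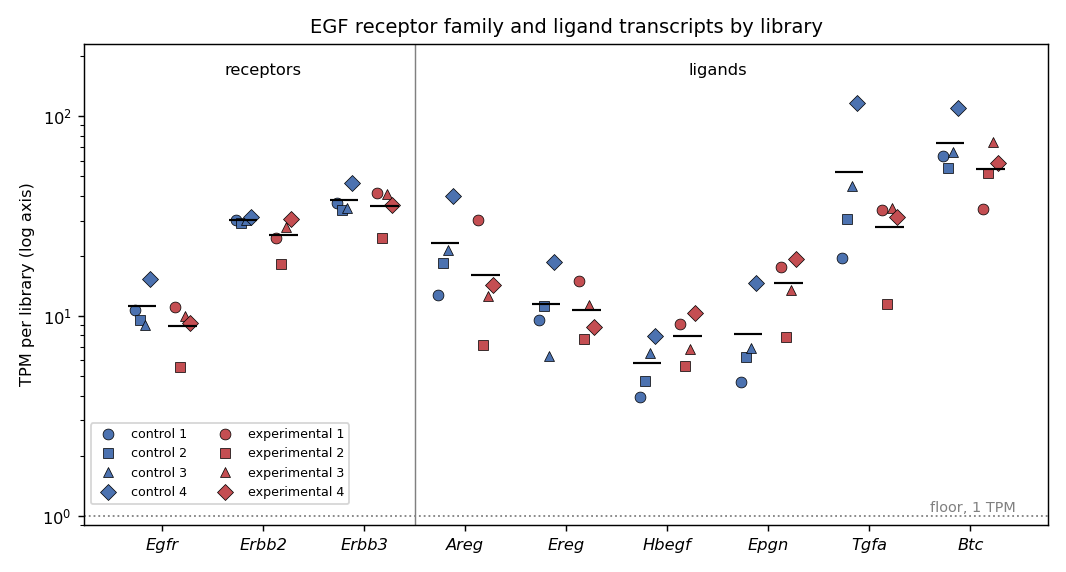
TPM of each receptor and ligand gene (log axis) in the 4 control libraries (blue) and the 4 experimental libraries (red), with a marker shape for each library number and short lines at the group means. Every point lies above the floor of 1 TPM, control library 4 (blue diamond) is the highest control for all 9 genes, and Tgfa spans 19.5 to 116 TPM in controls.

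**Figure D2:**
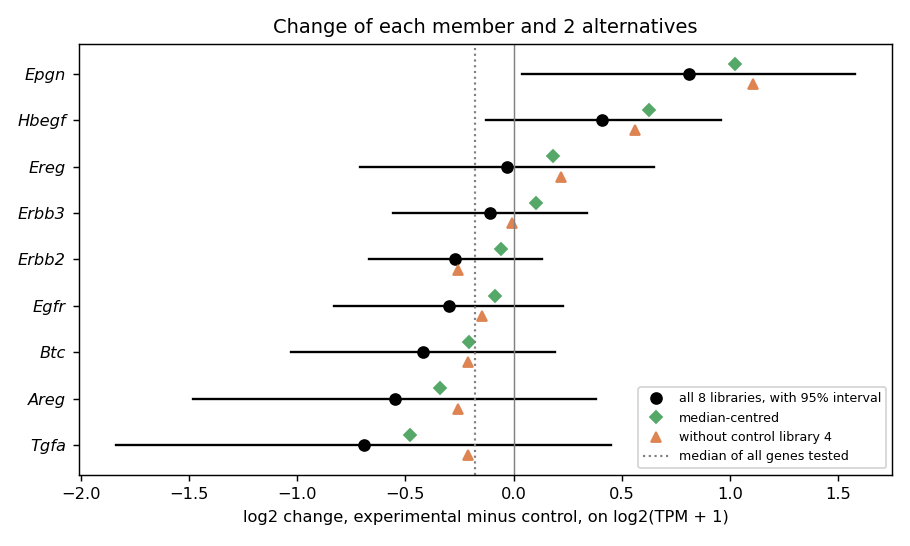
Log2 change of each gene (black, with its 95% interval), the same after median centring (green) and without control library 4 (orange), with the median of all tested genes, -0.18, as a dotted line. The interval of Epgn alone leaves out 0, at 0.04 to 1.58, and its adjusted p is 0.267.

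Btc led the order of levels in both groups. Within controls the order by mean TPM was Btc, Tgfa, Erbb3, Erbb2, Areg, Ereg, Egfr, Epgn and Hbegf. Neighbours were counted as different where the first was higher in all 4 libraries by a mean log2 difference larger than its SD. In controls this held for Erbb3 over Erbb2, Areg over Ereg, Egfr over Epgn and Epgn over Hbegf. Btc over Tgfa, Tgfa over Erbb3, Erbb2 over Areg, and Ereg over Egfr did not meet that rule. Btc exceeded Tgfa in 3 of the 4 controls, by a mean log2 difference of 0.76 (SD 0.73). In experimental libraries the order was Btc, Erbb3, Tgfa, Erbb2, Areg, Epgn, Ereg, Egfr and Hbegf, where Erbb3 over Tgfa was the only pair of neighbours that met the rule. Epgn thus stood under Egfr in every control and above it in every experimental library.

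The same libraries set the extremes of most members. Control library 4 was the highest control for 9 of the 9 genes, against 22.2% of all tested genes. Experimental library 2 was the lowest of its group for 8 of the 9, against 61.5% of all tested genes, with Btc as the exception. That library and experimental library 4 had the highest mitochondrial shares, 18.2% and 17.5% of the TPM listed, against 10.6% to 12.6% in the others. The part of the mitochondrial share in these levels was not tested.

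Ratios within a library do not depend on how libraries are scaled to each other. Of the 36 ratios between pairs of members, 5 did not overlap between the groups, or 13.9%. The share among all 46450341 pairs of the 9639 genes above the floor in every library was 14.8%, so the count is near the background. All 5 of the ratios had Epgn in them, and the comparison was chosen after the values were seen. Epgn against any other gene of the 9639 gave groups that did not overlap in 16.4% of cases, and Hbegf in 16.6%, while Areg did in 1.32% and Tgfa in 1.71%.

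Epgn exceeded Areg in 3 of the 4 experimental libraries and in no control. The ratio of Epgn to Areg was 0.367, 0.340, 0.325 and 0.367 in control epidermis, against 0.582, 1.10, 1.07 and 1.36 in experimental epidermis. The control values lay close together although Areg itself spanned 12.7 to 39.9 TPM among them. The ratio of Epgn to Tgfa was 0.126 to 0.239 in control epidermis, against 0.386 to 0.688 in experimental epidermis. To Btc it was 0.0738 to 0.133 and 0.151 to 0.511, to Egfr 0.434 to 0.956 and 1.35 to 2.09, and to Erbb3 0.126 to 0.315 and 0.320 to 0.541. Those last groups were separated by a narrow gap. Against Erbb2, Ereg and Hbegf the groups overlapped.

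**Figure D3:**
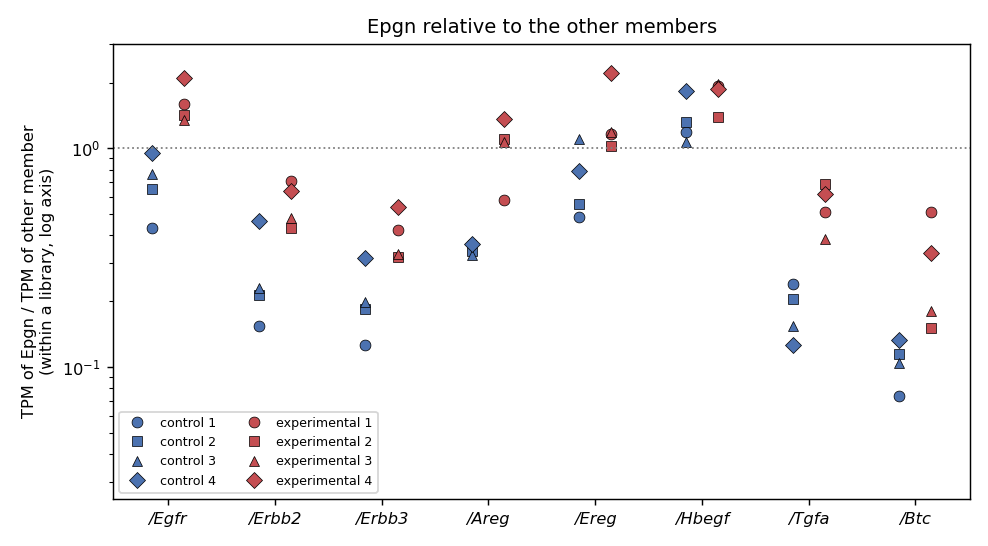
Ratio of the TPM of Epgn to that of each other member within a library (log axis), control libraries in blue and experimental libraries in red. The groups are apart for Egfr, Erbb3, Areg, Tgfa and Btc, with Epgn to Areg at 0.325 to 0.367 in control epidermis, against 0.582 to 1.36 in experimental epidermis.

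Epgn, Ereg, Areg and Btc lie in this order in a stretch of chromosome 5, with the starts of Ereg and Areg 47.2 kb and 112 kb after that of Epgn, and Btc on the opposite strand. The bases just before the start of Epgn and of the ligands whose ratio to it separated the groups are shown, so that the promoters of these genes can be compared. They come from RefSeq (GRCm38.p6), where 6 of the 9 members had an entry, and are written 5′ to 3′ on the gene's strand. Letters in capitals mark matches to 5 motifs, each searched as its letters and their reverse complement, and the matches do not overlap each other. The AP-1 motif, bound by FOS and JUN proteins, was TGANTCA. The CRE, bound by CREB, was TGACGTCA. The core promoter's TATA box was searched as TATAAA. For the grainyhead factors of epidermis the letters were AACNGGTT, and for the GC box, bound by SP1, they were GGGCGG. In Epgn the window stops before the earlier start that GENCODE M21 gives.
Epgn, chr5:91027267-91027463, plus strand: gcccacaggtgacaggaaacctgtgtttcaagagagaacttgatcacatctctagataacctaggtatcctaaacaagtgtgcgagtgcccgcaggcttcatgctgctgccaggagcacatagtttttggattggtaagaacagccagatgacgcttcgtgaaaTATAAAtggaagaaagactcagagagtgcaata
Areg, chr5:91139349-91139598, plus strand: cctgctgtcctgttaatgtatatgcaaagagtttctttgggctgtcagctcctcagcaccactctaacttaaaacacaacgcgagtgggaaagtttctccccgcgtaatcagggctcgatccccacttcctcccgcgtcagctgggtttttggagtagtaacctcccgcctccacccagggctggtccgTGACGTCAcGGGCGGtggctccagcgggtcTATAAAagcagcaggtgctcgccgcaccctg
Tgfa, chr6:86194972-86195221, plus strand: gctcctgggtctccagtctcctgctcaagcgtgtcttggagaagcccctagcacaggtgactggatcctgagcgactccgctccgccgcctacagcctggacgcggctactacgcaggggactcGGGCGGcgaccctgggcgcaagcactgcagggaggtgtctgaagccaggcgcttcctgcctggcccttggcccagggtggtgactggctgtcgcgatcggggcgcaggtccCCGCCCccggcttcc
Btc, chr5:91402995-91403244, minus strand: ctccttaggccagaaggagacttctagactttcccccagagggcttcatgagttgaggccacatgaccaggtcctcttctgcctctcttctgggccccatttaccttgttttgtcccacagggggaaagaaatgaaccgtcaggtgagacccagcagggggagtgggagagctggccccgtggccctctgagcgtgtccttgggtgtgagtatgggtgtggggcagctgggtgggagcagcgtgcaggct

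Epgn and Areg each held a TATA match, 27 and 25 bases before the end of the printed window. TATA matches were found in 12.4% of 32851 promoters in the 250 bases before the start and in 9.85% in the last 197 bases, the length shown for Epgn. Areg also held a CRE match, found in 1.55% of promoters over 250 bases, and a GC box, found in 32.7%. Tgfa held 2 GC boxes and no TATA match, and the Btc window held none of the 5 motifs. AP-1 letters occur in 6.75% of promoters and grainyhead letters in 1.79%, and neither was in the 4 windows. A match is a description of the letters only.

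The shares of the ligands in their summed level were compared within libraries. Summed over the 6 ligands, the level was 113, 126, 152 and 307 TPM in control epidermis, against 140, 91.8, 153 and 143 TPM in experimental epidermis. Apart from control library 4, the sums of the groups covered a like range. Epgn made up 4.10%, 4.97%, 4.55% and 4.77% of that sum in control epidermis, against 12.5%, 8.56%, 8.77% and 13.6% in experimental epidermis. Hbegf made up 2.60% to 4.28% in control epidermis, against 4.47% to 7.24% in experimental epidermis. The shares of these 2 ligands did not overlap between the groups. The groups were apart for 14.8% of all within-library ratios of gene pairs, as given above. A share of a sum that holds the gene itself is another measure, and its background was not computed. Btc ran from 35.8% to 55.6% in control epidermis, against 24.5% to 56.7% in experimental epidermis, and Tgfa from 17.2% to 37.8%, against 12.4% to 24.3%. Areg ran from 11.2% to 14.6%, against 7.76% to 21.5%, and Ereg from 4.13% to 8.91%, against 6.16% to 10.7%. All 4 of these overlapped. These shares of a sum depend on each other and were not tested.

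**Figure D4:**
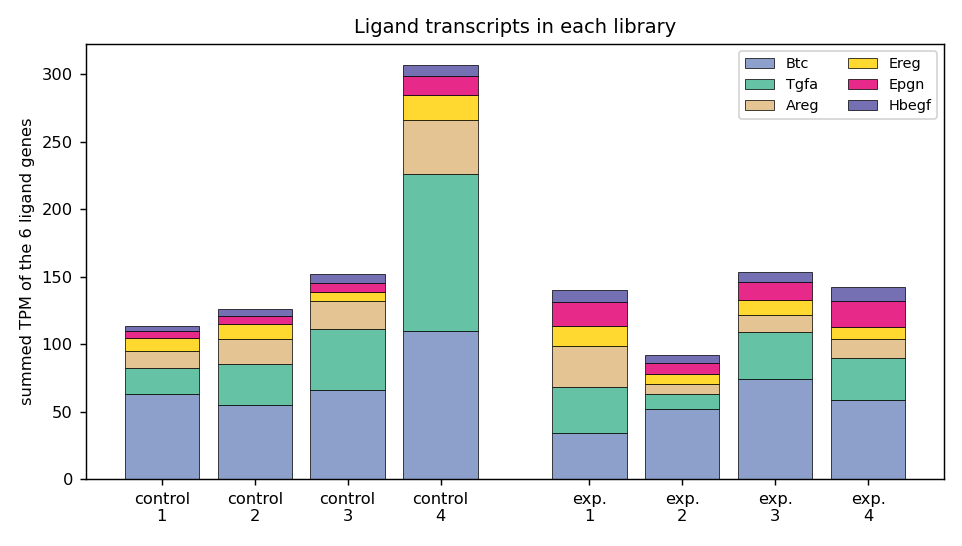
Summed TPM of the 6 ligand genes in each library, stacked by gene, with controls on the left and experimental libraries on the right. Control library 4 reaches 307 TPM, of which Tgfa and Btc form the most, and the Epgn segment (magenta) is 4.10% to 4.97% of the bar in control epidermis, against 8.56% to 13.6% in experimental epidermis.

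Likeness of pattern was measured as the root mean square difference between log2 TPM profiles over the 8 libraries, each centred on its own mean, among 9338 named genes. With that many genes and 8 libraries, close matches are easily found, and they are given as descriptions. Nearest to Egfr were Acvr1 (0.060), Igf2r (0.079) and Sgk1 (0.087), and nearest to Erbb2 were Dvl3 (0.034), Tsc2 (0.050) and Ralgapa1 (0.055). For Erbb3 they were Epha2 (0.067), Lrrc8e (0.079) and Ccndbp1 (0.081). For Tgfa they were Sema7a (0.071), Ephb1 (0.126) and Rhpn2 (0.130), and for Areg Trp53inp1 (0.166), Trpv6 (0.172) and Cpm (0.230). Epgn was nearest to Slc5a8 (0.146), Slc23a3 (0.171) and Fgf1 (0.226), and Hbegf to Palmd (0.158), Ndel1 (0.181) and Fam43a (0.192). Ereg was nearest to Cst6 (0.195), Dusp3 (0.206) and Ctsc (0.216), and Btc to Ormdl1 (0.161), Lrrc28 (0.171) and Adam19 (0.196). Among the members themselves, Egfr and Erbb3 were nearest to each other (0.155), as were Epgn and Hbegf (0.328) and Areg and Tgfa (0.431). Other genes were nearer in each case. By rank among the named genes, Erbb3 was number 65 for Egfr, and Egfr number 186 for Erbb3. Hbegf was number 15 for Epgn, and Epgn number 180 for Hbegf. Tgfa was number 160 for Areg, and Areg number 129 for Tgfa.

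The rest of the family was near or at the floor. Erbb4, Egf, Nrg3 and Nrg4 were listed at 0 in all 8 libraries, which here means 1 TPM or less. Nrg1, which encodes a ligand of ERBB3, was listed at 2.06 and 1.96 TPM in control libraries 3 and 4 and at 0 in the other 6. Nrg2, a related neuregulin gene, read 3.43 to 4.22 TPM in control epidermis, against 2.21 to 3.69 TPM in experimental epidermis (limma adjusted p = 0.443).

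Of 104 other pathway genes in 6 lists, 87 were tested and 1 passed, with 23 log2 changes above 0 and 64 below, beside 2727 above and 7955 below over all tested genes. The gene that passed was Gab1, which encodes a docking protein that joins activated receptors to PI3 kinase and SHP2. Gab1 read 15.4, 15.3, 16.6 and 17.7 TPM in control epidermis, against 9.28, 5.52, 8.58 and 8.51 TPM in experimental epidermis. Every experimental value lay under every control, where 9.94% of tested genes did the same. The log2 change of Gab1 was -0.96 (SE 0.18, limma adjusted p = 0.0257). It was below 0 in all 18 alternative fits and passed in 11, with adjusted p from 0.0236 to 0.177. The call was lost without control library 2 (limma adjusted p = 0.0732), control library 3 (0.0873), experimental library 1 (0.0504), experimental library 3 (0.0777) or experimental library 4 (0.0671). It was also lost without experimental libraries 2 and 4 (0.177) and without the filter on low values (0.0621). Gab1 is also in the authors' deposited table of falls, with a log2 fold change of -0.87 and an adjusted p of 0.00467. That table comes from the libraries of this same series, so it is no independent check.

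Proteases that release the ligands did not pass. In the list of sheddases and their adaptors 0 of 8 tested genes passed, with a median log2 change of -0.08. Adam17, the main sheddase of Areg, Tgfa and Hbegf, read 13.2 to 15.9 TPM in control epidermis, against 7.47 to 14.4 TPM in experimental epidermis (limma adjusted p = 0.413). Adam9 read 9.68, 9.94, 9.96 and 21.5 TPM in control epidermis, against 8.42, 3.79, 9.29 and 8.37 TPM in experimental epidermis (limma adjusted p = 0.308).

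Inhibitors and feedback genes had a median log2 change of -0.27, the same size as the members' median of -0.27, and 0 of 17 passed. Lrig1, a membrane protein that lowers receptor levels and marks stem cells, read 36.6, 31.7, 18.6 and 17.7 TPM in control epidermis, against 15.9, 9.47, 14.3 and 12.5 TPM in experimental epidermis. The groups were apart, though control libraries 3 and 4 stood close to the experimental ones. Its log2 change was -0.91 (limma adjusted p = 0.113), and it passed without control library 4 (adjusted p = 0.0392). Rnf41, a ubiquitin ligase that acts on ERBB3, read 10.1 ± 0.87 and 6.88 ± 1.37 TPM (SD, n = 4 each; limma adjusted p = 0.181). Lrig1 is in the authors' deposited table with a log2 fold change of -0.76 and an adjusted p of 0.00984.

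Adaptors and transducers had a median log2 change of -0.24, and Gab1 alone passed among 31. Stat5a, a transcription factor downstream of several receptors, read 5.49 ± 1.75 and 2.64 ± 0.79 TPM (SD, n = 4 each; limma adjusted p = 0.116). It passed without control library 4 (limma adjusted p = 0.0228), and the authors' deposited table gives it a log2 fold change of -0.81 and an adjusted p of 0.0307. Of the 9 members 0 were in that table, whose 748 rows are all falls, beside 10682 genes tested here. A gene that rose could not be in it, so it says nothing on a rise of Epgn or Hbegf.

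Trafficking genes had a median log2 change of -0.17 and 0 of 11 passed. Epn1, an endocytic adaptor, read 68.7 ± 4.81 and 49.9 ± 5.41 TPM (limma adjusted p = 0.157), and Eps15, an EGFR substrate in endocytosis, 29.3 ± 7.16 and 19.0 ± 3.15 TPM (SD, n = 4 each; limma adjusted p = 0.175).

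Early response genes, which many growth signals switch on, had a median log2 change of 0.01, and 0 of 19 passed. Fosl1, an AP-1 subunit, was listed at 0 in control libraries 1 to 3 and at 2.07 TPM in control library 4, and read 4.57, 1.40, 2.42 and 3.83 TPM in experimental libraries (limma adjusted p = 0.168). Ier3 read 40.0, 44.5, 39.4 and 74.1 TPM in control epidermis, against 91.4, 61.4, 78.4 and 70.9 TPM in experimental epidermis (limma adjusted p = 0.188). As for Epgn, control library 4 reached into the experimental range for both genes, and Ier3 passed without it (limma adjusted p = 0.0254).

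**Figure D5:**
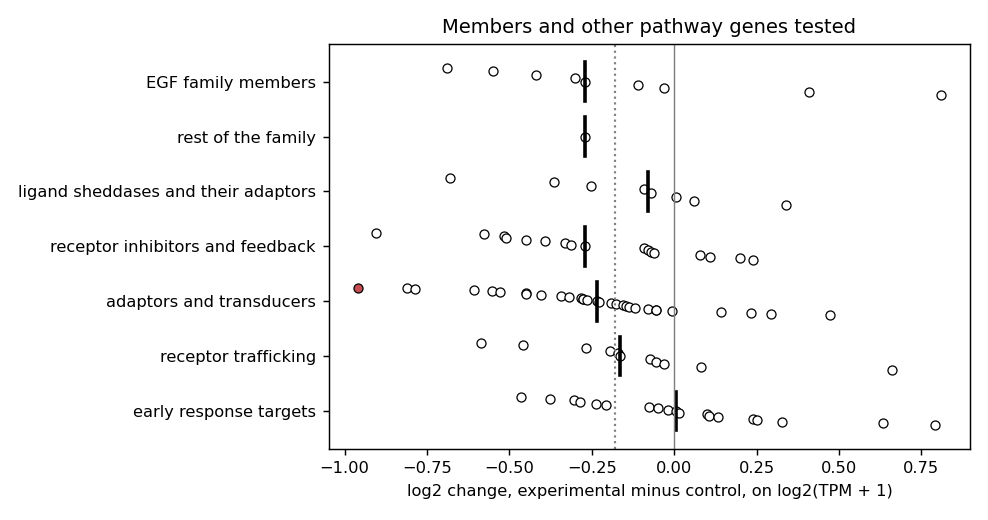
Log2 change of the members and of the tested genes of 6 pathway lists, 1 circle a gene, with list medians as black bars, 0 as a solid line and the median of all genes, -0.18, dotted. Gab1 (filled) is the only gene past the threshold.

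The authors' deposited MAJIQ table gives the PSI per group, without library values. PSI is percent spliced in, here a fraction: the part of the reads at a splice site that crosses a given junction. Of the 9 members 0 appeared among its 236 genes. The expression data held 21690 genes, so the absence of 9 says little about their splicing.

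Pik3r1 encodes the main regulatory subunit of PI3 kinase. In the authors' deposited table the intron from 101692631 to 101694375 on chromosome 13 stood at a PSI of 0.241 in control and 0.544 in experimental skin. The probability of a change of at least 0.15 was 0.986. The junction from 101690583 to 101694376, which spans that intron, stood at 0.759 and 0.456 (probability 0.986). In another entry the same junction stood at 0.438 and 0.47 (probability 0.01), so the change depends on the entry. A further intron, from 101694601 to 101701446, stood at 0.125 and 0.352 (probability 0.781). Pik3r1 read 11.9, 11.3, 7.01 and 3.66 TPM in control epidermis, against 4.27, 6.89, 5.85 and 5.03 TPM in experimental epidermis (limma adjusted p = 0.493).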

How the data were processed

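Epidermal RNA of 4 control and 4 experimental pups was sequenced from NEBNext Ultra libraries, per the labels' protocols. Tools listed in the submitters' processing notes are Salmon 0.14.0, STAR, DESeq and SAMtools 1.9, and the builds are GRCm38 and mm10, with no roles given. The authors deposited log2 TPM per gene, without batch correction per the file name. The deposited mean normalized count signal per kilobase was compared with the back-transformed values in 5 bins of level: the ratio stayed within 0.921 to 1.00 of that in the top bin, and went to 1.51 in the lowest bin where the values were taken as log2(TPM + 1). So the values are log2 TPM, and a listed 0 stands for 1 TPM or less. The design had assumed log2(TPM + 1). The deposited differential table holds log2 fold changes, Wald scores, p-values and adjusted p-values, and the deposited MAJIQ table PSI fractions, differences as scores and probabilities, per the file headers. Column names give a group but no replicate number of the labels, so libraries 1 to 4 are numbered in table order and were not paired. Of 21690 identifiers 21662 matched a symbol.

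TPM was set to at least 1 and taken as log2(TPM + 1), which understates the change of low genes, and the 10682 genes whose mean TPM reached 1 were tested in limma 3.58.1 (R 4.3.3; group as the only term, variance trend, Benjamini-Hochberg over all genes, two-sided). All 9 members passed that filter. P-values set the difference of the group means against the spread between these libraries within a group. The test was checked on simulated data. The 9 members, all lists and the alternatives were chosen with earlier results of these data known. Alternatives were a pseudocount of 0.1 or 0.5 TPM, dropping the filter or raising it to 5 TPM, median centring or quantile normalization, a fit without variance trend, and leaving out libraries. Named genes were all members, the rest of the family, of each list the passing genes (at most 6 by p) or else the 2 of lowest p, list genes in the deposited tables (one result is not reported here), Esrp1 and Esrp2, and for each member the 3 genes of most like pattern. Other software was Python 3.11.15 with pandas 2.3.3, numpy 2.4.6 and matplotlib 3.10.9.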

Additional observations from a re-analysis of the deposited data

Results flagged for a closer look

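Tgfa in experimental library 2 stood apart from the rest of its group, at 11.4 TPM against 31.4, 34.1 and 34.8 TPM. The gap to the nearest library was 0.855 of the group's range, above Dixon's 95% critical value for 4 samples. The members gave 18 such groups, and chance flags about 1 group in 20. Without that library the log2 change of Tgfa was -0.33 (limma adjusted p = 0.861), and it was -0.69 with all libraries (limma adjusted p = 0.518). The same library was the lowest of its group for 8 of the 9 members and had the highest mitochondrial share, 18.2% of the TPM listed, whose part was not tested.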

How the results depend on the processing

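No paired analysis was possible because the columns carry no replicate number of the labels. Of 162 alternative values of the members' log2 changes (18 settings each), 148 kept their sign and their side of the threshold, 2 (both Epgn) passed it and 12 changed sign. Quantile normalization turned Erbb3 to 0.068 and Ereg to 0.206 and median centring to 0.11 and 0.18. Without experimental libraries 2 and 4 these were 0.12 and 0.27, and without control libraries 3 and 4 Ereg was 0.002 and Tgfa 0.069. With each library left out Erbb3 ran from -0.186 to 0.056 (above 0 without experimental library 2) and Ereg from -0.26 to 0.218 (above 0 without experimental library 2 or 4 or control library 4). The cause was not tested.

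The number of members past the threshold was 0 to 1 with each library left out and 1 without control libraries 3 and 4. With all 8 libraries it was 0 in every limma fit. At an unadjusted limma p under 0.05 there was 1 member, Epgn, in the main fit. There were 2 with quantile normalization, Epgn and Hbegf, and 0 without the filter on low values. The number of all genes past the threshold, 263, became 119 without the filter (more genes tested), 15 without experimental libraries 2 and 4, 2544 without control libraries 3 and 4, 498 without control libraries 1 and 2, and 85 to 581 with each library left out. The number of pathway genes past it, 1, became 0 without the filter, 2 with centring (Gab1 and Nras), 0 without experimental libraries 2 and 4, 12 without control libraries 3 and 4, and 0 to 4 with each library left out. The pairs of members whose ratio did not overlap, 5, became 8, 14 and 11 without experimental libraries 2 and 4, control libraries 3 and 4 and control libraries 1 and 2, and 5 to 10 with each library left out; these alternatives were chosen after seeing the data, and fewer libraries overlap less easily. Depth was unknown, and 4 libraries a group limit the precision.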
